A study of Mus musculus with 4 samples.

Results

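Hox genes encode homeodomain transcription factors that lie in 4 chromosomal clusters, Hoxa to Hoxd, and this account follows them in embryonic mouse kidneys under 2 maternal diets. Genes that hold the same place in different clusters are paralogs and share a number from 1 to 13. In the trunk, low numbers are switched on early and far forward, high numbers late and toward the tail, so that an organ carries the Hox combination of its body level. The kidney forms at a caudal level. The paralogs of number 11 act there with Eya1 and Pax2 to switch on Six2 and Gdnf in the mesenchyme that induces the ureteric bud, and those of number 10 are needed in the renal stroma. Members were the 38 Hox genes listed for the array, and a gene counted when at least 1 probe set carried its symbol and no other. That held for 33 of 38, and 1 probe set per gene, the one with the highest mean signal, was used out of 34945 probe sets with a single symbol. Hoxa6, Hoxb8, Hoxc11, Hoxc12 and Hoxd4 were not analysed here, and 3 probe sets whose annotation joins a Hox symbol with another symbol were not used.

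The kidneys came from C57BL/6 embryos at embryonic day 15 (E15), when nephrons form at the rim while the collecting system branches. The dams, C57BL/6 females from 8 weeks of age, were given a diet with 220 ppm iron (control) or a synthetic iron-deficient diet with about 2 to 6 ppm, over the 3 weeks before gestation, during breeding and through pregnancy, and were mated with C57BL/6 males. Each diet had 2 pools of 16 kidneys, and each pool was measured on 1 Affymetrix Mouse Genome 430 2.0 array. Whether separate litters made up the pools is not in the labels, so p-values reflect nothing beyond pool-to-pool spread, which may be technical. The number of arrays limits the precision of every value.

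The signals are linear array intensities, and an array's background was set at its highest unspiked control probe set, 8.5 and 8.2 for control and 14.4 and 13.3 for iron-deficient kidneys. Iron-deficient pool 1 gave an unusual array: its log2 signals correlated with those of the other arrays at 0.913 at most, where the control pools reached 0.978, and its 18S ribosomal RNA 5′ probe set read 2144.5 against 243 to 291.9 on the other arrays. The labels give every sample as female, yet Eif2s3y, a Y-linked gene, read 594.5 and 600 for control, 253.6 for iron-deficient pool 1 and 20.8 for pool 2. Kidney lineages were present on every array: all 10 cap mesenchyme markers, all 10 ureteric bud markers and all 10 stroma markers were above background in the 4 pools. Of all non-control probe sets, 63.3% to 74.4% were above background, depending on the array.

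The start regions of 4 members are shown first, and none of these genes passed the diet test. They are Hoxd1, Hoxd10 and Hoxd12, whose iron-deficient signals both exceeded the controls, and Hoxa11, whose signal was low in iron-deficient pool 1 alone. Hoxa3, Hoxa10 and Hoxb3 also exceeded the controls in both pools and are not shown. Each region shown is the 250 bases before the annotated start, 5′ to 3′ on the gene's strand, from RefSeq on GRCm38.p6. Capitals mark ACGTG or GCGTG on either strand, the core that hypoxia-inducible factors bind, with overlapping matches allowed.
Hoxa11, chr6:52245811-52246060, minus strand: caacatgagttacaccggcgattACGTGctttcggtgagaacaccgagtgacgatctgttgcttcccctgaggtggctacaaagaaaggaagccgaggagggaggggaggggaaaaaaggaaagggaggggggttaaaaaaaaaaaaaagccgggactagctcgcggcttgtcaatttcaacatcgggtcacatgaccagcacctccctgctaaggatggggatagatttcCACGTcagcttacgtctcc
Hoxd1, chr2:74762730-74762979, plus strand: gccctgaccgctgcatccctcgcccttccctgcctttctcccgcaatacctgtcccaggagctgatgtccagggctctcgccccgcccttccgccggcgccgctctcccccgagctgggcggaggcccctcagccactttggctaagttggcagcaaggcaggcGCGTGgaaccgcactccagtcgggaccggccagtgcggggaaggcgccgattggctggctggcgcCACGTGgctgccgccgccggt
Hoxd10, chr2:74691641-74691890, plus strand: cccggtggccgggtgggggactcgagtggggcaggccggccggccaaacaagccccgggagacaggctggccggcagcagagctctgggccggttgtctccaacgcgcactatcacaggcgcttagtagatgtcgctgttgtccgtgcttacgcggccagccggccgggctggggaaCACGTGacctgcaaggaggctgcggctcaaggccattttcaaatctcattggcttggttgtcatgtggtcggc
Hoxd12, chr2:74674763-74675012, plus strand: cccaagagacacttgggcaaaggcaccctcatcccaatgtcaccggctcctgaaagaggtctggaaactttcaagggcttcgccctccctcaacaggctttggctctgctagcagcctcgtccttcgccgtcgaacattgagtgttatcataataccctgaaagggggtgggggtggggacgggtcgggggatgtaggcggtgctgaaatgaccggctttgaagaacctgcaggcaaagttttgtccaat
The Hoxd1 region held 3 such matches, those of Hoxd10 and Hoxa11 held 2 each, and that of Hoxd12 held 0. Of the 38 genes, 22 matched by symbol, with 24 start regions, and 10 of these (41.7%) held at least 1 match, against 38.6% of 32851 mouse start regions of the same length. The caudal motif TTTATG was present in 5 (20.8%), against 10.8% of all, and the Hox-Pbx motif TGATNNAT, where N is any base, in 4 (16.7%), against 7.68% of all, both strands searched. The Hox regions had a median G+C content of 58.6% (range 40.4% to 80%), against 52.4% over all. Their median ratio of observed to expected CpG was 0.721, against 0.373 over all. A match is a description of letters and not evidence of binding.

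In the control kidneys, every number from 1 to 12 had at least 1 Hox gene above background in both pools, and number 13 had none. The question was which members give a signal in the control organ. Of 33 genes, 27 were above background in both control pools, and the same number were above it in all 4 pools. Of all non-control probe sets, 74.4% and 69.6% were above it in control pools 1 and 2. Each Hox gene was read on its brightest probe set, and the share of all genes read that way was not computed. The counts therefore do not set the Hox genes apart. The 27 comprised 8 of 9 in cluster A, 6 of 9 in cluster B, 6 of 7 in cluster C and 7 of 8 in cluster D. All 9 measured paralogs of numbers 9 to 11 were among them, as were 8 of 9 of numbers 5 to 8 and 9 of 10 of numbers 1 to 4. Of the 4 paralogs of number 13, none was above background in both control pools. Signals of different probe sets depend on their binding and were not ranked against each other.

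**Figure D1:**
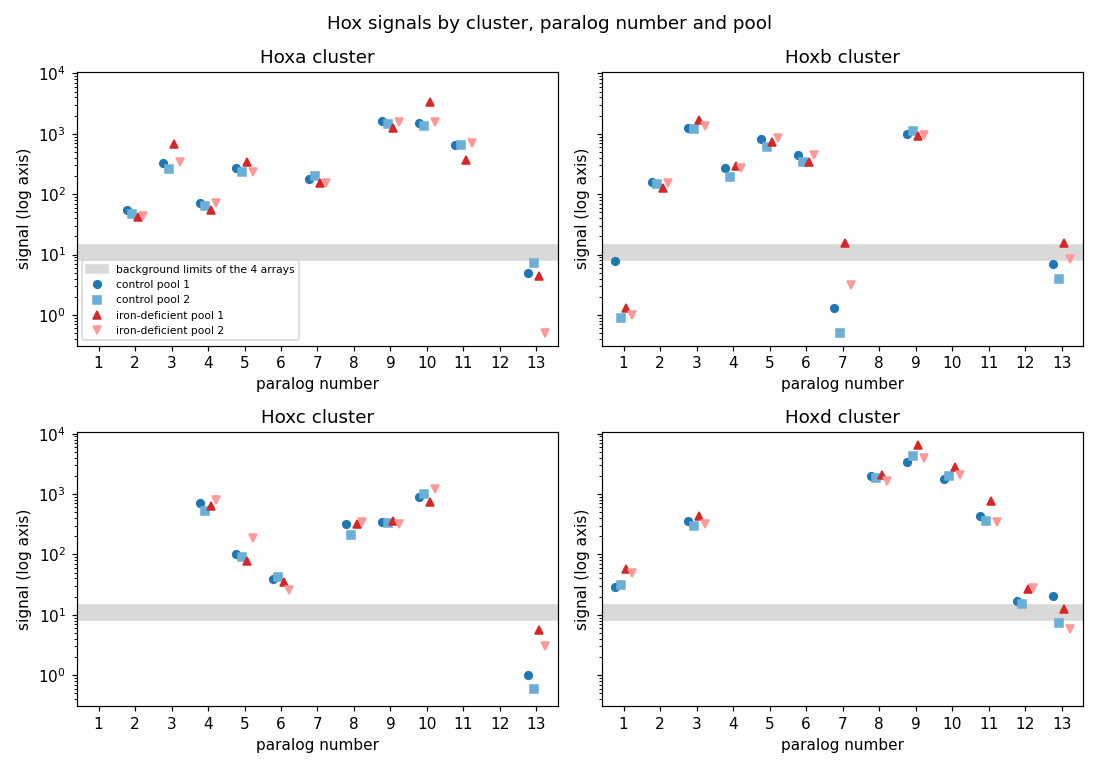
Array signal on a log axis against paralog number for the 33 measured Hox genes, in 1 panel per cluster, with a point for each of the 4 pools and a grey band for the range of the 4 background limits (8.2 to 14.4). The paralogs of numbers 9 to 11 lie above the band in every pool, while those of number 13 lie in it or below it, except for Hoxd13 in control pool 1 (20.6) and Hoxb13 in iron-deficient pool 1 (15.8); heights of different genes are not comparable.

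Hoxb1, which marks a hindbrain segment, read 7.9 and 0.9 under the control diet and 1.3 and 1 under iron deficiency, below background throughout. Hoxa13 and Hoxd13 pattern the digits and the genital and gut outlets. Hoxa13 read 4.9 and 7.3 under the control diet and 4.5 and 0.5 under iron deficiency, all below background. Hoxd13 read 20.6 in control pool 1, above background, and 7.3, 12.4 and 5.9 in the others, which were not. Hoxb13, a gene of the tail end and prostate, was above background only in iron-deficient pool 1, at 15.8, with 7 and 4 in control pools and 8.4 in iron-deficient pool 2. Hoxc13, a hair and nail gene, did not pass background in any pool and ranged from 0.6 to 5.7. Hoxb7, known for its expression in the ureteric bud, read 1.3 and 0.5 for control and 15.4 and 3.2 for iron deficiency on the probe set that carries its symbol alone, so that only the 15.4 was above background. These 6 genes were the ones left out by the filter on dim probe sets, and no fold is given for them.

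Control pools resembled each other for the 27 tested members. Their pools differed by less than 1.5-fold in 26 of 27, the exception being Hoxc8, a thoracic gene, at 323.2 and 209.4. The standard deviation of the log2 difference between the control pools was 0.239 over the members and 0.504 over all 27022 tested probe sets. Between the iron-deficient pools it was 0.583 over the members and 0.964 over all.

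The comparison of diets asked which Hox transcripts respond in the embryo's kidney when the dam lacks iron. None of the 27 tested members passed an adjusted p of 0.05 by limma (smallest adjusted p = 0.852), and 0% of all tested probe sets did. With 2 pools per diet and wide intervals, given below, the absence of calls says little. At an unadjusted p under 0.05 lay 0 members, against 3.96% of all probe sets and 4.58% of 12992 genes with 1 probe set each. Hoxd1 had the smallest p. That count depends on the setting. When limma was fitted with 1 probe set per gene, 2 members lay under 0.05, Hoxd1 and Hoxd12, against 6.1% of genes. Without the filter 2 dim members did, Hoxb7 and Hoxc13, against 4.53% of all probe sets. Log2 differences, iron-deficient minus control, ranged from -0.44 to 0.80, and no member differed by 2-fold or more, as 6.83% of all tested probe sets did. The members' median was 0.17, with 17 above 0 and 10 below, while the median of all tested probe sets was -0.10 and 41.6% lay above 0. The 95% interval held 0 for all 27 members and reached past 2-fold in at least 1 direction for 19 of them, so changes of that size are not excluded there. For 6 members, or 22.2%, both iron-deficient values exceeded both control values, against 11.8% of all probe sets and 13% of genes. For 4, or 14.8%, both were below, against 25% and 25.9%, and separation in either direction was seen in 36.7% of all probe sets and 39% of genes. The 6 were Hoxa3, Hoxa10, Hoxb3, Hoxd1, Hoxd10 and Hoxd12, and the 4 were Hoxa2, Hoxa7, Hoxb9 and Hoxc6. With 2 pools against 2, an exact permutation test cannot give a p below 0.333.

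**Figure D2:**
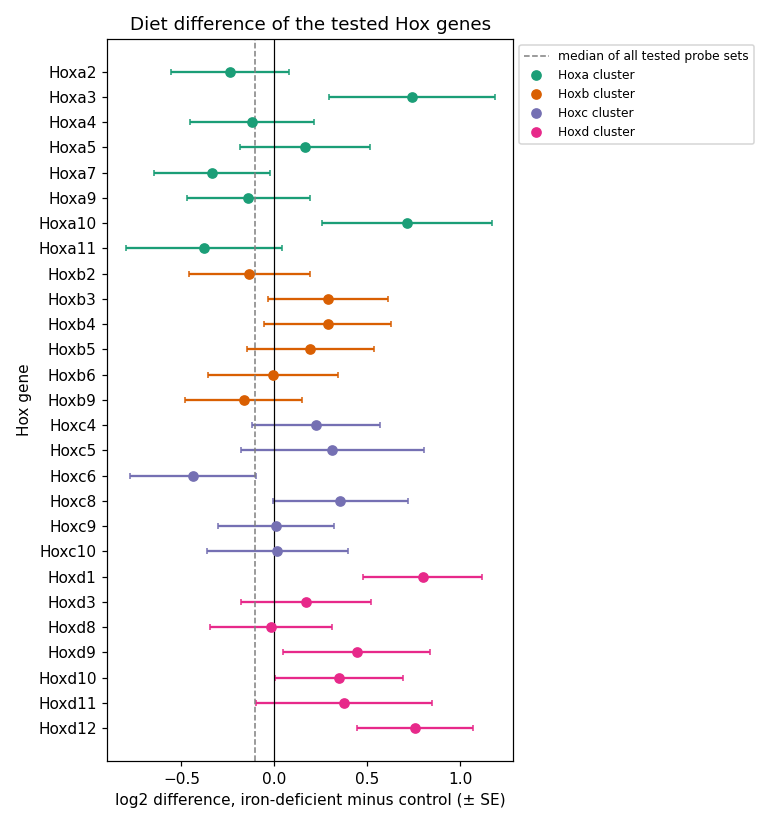
Log2 difference between diets for the 27 tested Hox genes, as points with bars of ± 1 standard error from limma (2 pools per diet), coloured by cluster; the solid line is 0 and the dashed line the median of all tested probe sets (-0.10). Differences run from -0.44 for Hoxc6 to 0.80 for Hoxd1, and none passed the test over all probe sets.

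By cluster, the median difference was -0.13 over 8 genes in cluster A, 0.09 over 6 in cluster B, 0.12 over 6 in cluster C and 0.37 over 7 in cluster D. In cluster D, 6 of 7 lay above 0 and 3 were above the controls in each iron-deficient pool (11.8% of all probe sets, 13% of genes), among them Hoxd12, whose control mean of 16.1 was under the filter limit of 17.3. That median came mostly from iron-deficient pool 1: against the control mean it was 0.73 in pool 1 and 0.07 in pool 2. In iron-deficient pool 1, 5 of 7 genes of cluster D and 3 of 8 of cluster A lay more than 0.5 log2 units from the control mean, and 0 of 6 in cluster B and 0 of 6 in cluster C. In iron-deficient pool 2 these counts were 2 of 7, 0 of 8, 0 of 6 and 2 of 6. Over all tested probe sets, 57.9% lay that far off in pool 1 and 21.3% in pool 2. The median distance from the control mean in pool 1 was 0.32 for the members and 0.60 for all tested probe sets, and in pool 2 it was 0.19 and 0.24.

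**Figure D3:**
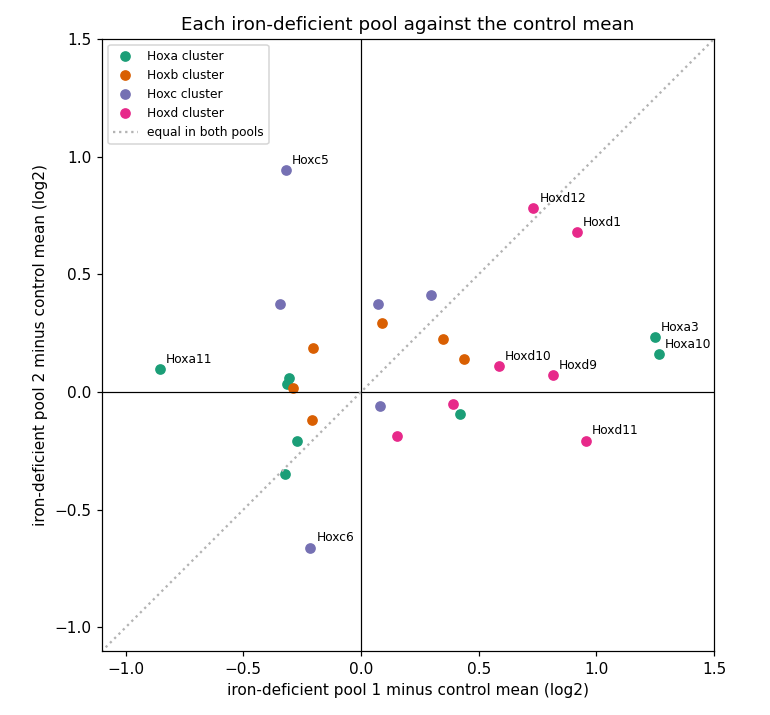
For each of the 27 tested Hox genes, the log2 signal of iron-deficient pool 1 (horizontal) and of iron-deficient pool 2 (vertical) minus the mean of the control pools; names mark genes more than 0.5 from 0 in either pool. Hoxd1 and Hoxd12 lie near the dotted line of equal differences, while Hoxa3, Hoxa10, Hoxa11, Hoxd9 and Hoxd11 lie far from 0 in pool 1 only.

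Among the anterior genes, of numbers 1 to 4, Hoxd1 had the largest difference. Its signals were 29 and 31.7 with the control diet and 57.2 and 48.5 with iron deficiency. The groups do not overlap, and the difference was 0.80 ± 0.32 (SE, limma p = 0.0502, exact permutation p = 0.333, adjusted p = 0.852), with 0.68 in iron-deficient pool 2 alone. It was singled out for its size after its values were seen, its signals are dim, and with an offset of 16 added to all signals it was 0.57. Hoxa2, which patterns the second branchial arch, read 55.1 and 46.9 against 42.1 and 44, lower in both iron-deficient pools, while its paralog Hoxb2 read 159.5 and 145.8 against 124.9 and 154.4 and overlapped. Hoxa3, needed for thymus and parathyroid, read 324.8 and 260.5 against 690.4 and 342. The higher value in pool 1 carried most of its difference of 0.74, which was 0.23 without that pool. Its dimmer probe sets differed by 0.39 and 0.19. Hoxb3 read 1253.2 and 1212.2 under the control diet and 1669.3 and 1358.5 under iron deficiency, without overlap, a difference of 0.29 ± 0.32, or 0.14 without pool 1. Hoxd3, a gene of the upper neck vertebrae, read 364.4 and 296.4 against 431.4 and 317.1 and overlapped. All 3 paralogs of number 3 thus had their highest signal in iron-deficient pool 1. Of number 4, Hoxa4 read 72.5 and 62.9 against 54.7 and 70.4. Hoxb4, which can expand blood stem cells, read 268.6 and 195.6 against 291.7 and 267.7. Hoxc4 read 709 and 527.4 against 643.6 and 792. The diets overlapped for each of these 3 on the brightest probe set, while the second probe set of Hoxb4, at 43.9 and 31.7 against 66.5 and 51.6, was higher in both iron-deficient pools (0.65 ± 0.36).

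The central genes, of numbers 5 to 8, differed by -0.44 to 0.35. Hoxa5, a lung and neck gene, read 268.8 and 234 for control and 335.5 and 235.1 for iron deficiency. Hoxb5 read 812.6 and 597.5 against 741.6 and 854.1. Hoxc5 read 102.1 and 90.1 against 76.9 and 184.2, so that its iron-deficient pools lay on either side of the controls. None of the 3 paralogs of number 5 was separated by diet. Hoxb6 read 445.2 and 341.7 against 338.5 and 443.9, nearly the same pair of values in either diet. Hoxc6 read 39.2 and 43.1 against 35.4 and 26, lower in both, a difference of -0.44 ± 0.34, but its dimmer probe sets had the opposite sign, at 0.31 and 0.53. Hoxa7 read 180.6 and 203.8 against 153.3 and 150.9, lower in both pools by a similar amount (-0.34 ± 0.31, and -0.14 after quantile normalization). Hoxc8 read 323.2 and 209.4 against 319.8 and 346.1. Hoxd8 read 1980.4 and 1814.8 against 2104.5 and 1667, and both number 8 paralogs overlapped between diets on the brightest probe set. The second Hoxd8 probe set, at 1166.1 and 1182.7 against 804.9 and 1053.4, was lower in both (-0.35 ± 0.33). More than 1 probe set was tested for 10 of the 27 genes, and for Hoxa4, Hoxa5 and Hoxc6 these differed in sign.

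The paralogs of number 9 were above background in every pool. Hoxa9, a regulator of blood progenitors, read 1627.3 and 1458 with the control diet and 1239.5 and 1575.8 with iron deficiency. Hoxb9 read 979.2 and 1116 against 903.7 and 962.2, just below both controls in each pool. Hoxc9 read 349.4 and 327.8 against 357.5 and 324.8, the iron-deficient pair enclosing the control pair. Hoxd9 read 3345.8 and 4208.3 against 6598 and 3939, high in iron-deficient pool 1 and between the controls in pool 2. Its difference of 0.44 became 0.07 without pool 1 and -0.001 after quantile normalization.

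The stromal paralogs of number 10 had unequal differences, none past the test. Hoxa10 read 1483.3 and 1331.4 under the control diet and 3375.3 and 1569.5 under iron deficiency. Both iron-deficient values were above the controls, yet pool 2 only just, and the difference was 0.71 ± 0.46 (SE, limma p = 0.174, exact permutation p = 0.333, adjusted p = 0.852) or 0.16 without pool 1. Its dimmer probe set, at 59 and 19.9 against 147.2 and 36.7, overlapped and differed by 1.10 ± 0.83. Hoxc10 read 885.6 and 1005.2 against 744.2 and 1220.9, the pools of the iron-deficient diet lying below and above the controls (0.01 ± 0.38, limma p = 0.97, exact permutation p = 1, adjusted p = 0.994). Hoxd10 read 1767.1 and 1997.5 against 2818.5 and 2030.1, a difference of 0.35 ± 0.34 (limma p = 0.353, exact permutation p = 0.333, adjusted p = 0.852), 0.11 without pool 1 and 0.16 after quantile normalization. After quantile normalization neither Hoxa10 nor Hoxd10 was separated by diet, while Hoxb4, Hoxc4, Hoxc8 and Hoxc9 were higher in both iron-deficient pools. That fit gave 8 of 27 members higher in both and 3 lower, against 14% and 21% of all tested probe sets.

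The paralogs of number 11, the ones that act upstream of Six2 and Gdnf, had opposite signs. Hoxa11 read 652.4 and 664.1 for control and 364.2 and 704.4 for iron deficiency. It was low in iron-deficient pool 1 and highest in pool 2, so the diets overlap (-0.38 ± 0.42, limma p = 0.407, exact permutation p = 1, adjusted p = 0.855). Hoxd11 read 439.1 and 360.7 against 770.8 and 344.9, highest in pool 1 and lowest in pool 2 (0.37 ± 0.47, limma p = 0.463, exact permutation p = 1, adjusted p = 0.862). Without iron-deficient pool 1 both signs turned, to 0.10 for Hoxa11 and -0.21 for Hoxd11. Hoxd12, a digit gene next to Hoxd11, read 16.9 and 15.4 against 26.8 and 27.7. It was higher in both iron-deficient pools by nearly the same amount (0.76 ± 0.31, limma p = 0.0549, exact permutation p = 0.333, adjusted p = 0.852, and 0.78 without pool 1), at signals near a background that was itself higher on the iron-deficient arrays. With the background limit doubled, both control pools fell below it. Its control mean of 16.1 was under the filter limit of 17.3, so it was tested only because of its iron-deficient signals, and with the offset of 16 the difference was 0.43.

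Marker lists of cell types were read from the same fit, and none of their genes passed the adjusted threshold. The median difference was largest in size for the proximal tubule. The 9 measured markers of the proximal tubule were all lower in both iron-deficient pools (25% of all probe sets, 25.9% of genes), with a median difference of -2.72 and sums of 5853 and 5781 against 1444 and 2293. Among them Miox, with an iron-deficient mean of 9.4, was tested only because of its control signals. Of 7 tested erythroid markers, 5 were higher in both (11.8% of all probe sets, 13% of genes), with a median of 1.96 over the 7. Hemgn and Ermap, among the 5, had control means of 17.04 and 16.76, under the filter limit of 17.3. They were tested only because of their iron-deficient signals. Alas2 was lower in both, at 520.1 and 479.9 against 135.4 and 305.8 (25% of all probe sets were lower in both). The erythroid list summed to 1117 and 1230 against 2766 and 2304. The summed signal of the 10 cap mesenchyme markers was 5011 and 4791 for control, 3138 for iron-deficient pool 1 and 4712 for pool 2, with 3 of 10 below (25% of all probe sets) and 2 above (11.8%) the controls in each iron-deficient pool. That of the 10 stroma markers was 15460 and 16570 with the control diet and 20520 and 18560 with iron deficiency, with 5 of 10 higher in both, to be read against the same 11.8% and 13%. That of the 10 ureteric bud markers was 6565 and 6801 under the control diet and 5274 and 6622 under iron deficiency, with 6 of 10 lower in both, to be read against 25% and 25.9%. No marker of these 5 lists was below background in all pools. In a bulk pool, fewer cells of a type and less RNA per cell cannot be told apart, and the part of these shifts in the Hox values was not tested.

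Tissue with its own posterior Hox genes can adhere to a dissected kidney. Of the muscle, cartilage and limb markers, 5 of 12 were below background in every pool, among them the limb genes Tbx4 and Tbx5, and 3 of 6 tested (Myod1, Myog and Col2a1) were higher in both, against 11.8% of all probe sets. Myod1 and Myog, with control means of 11.3 and 16.6, were tested only because of their iron-deficient signals. The list's summed signal was 355.2 and 299.7 for control, 439 for iron-deficient pool 1 and 1064 for pool 2. The hindgut and genital markers summed to 600 and 544.9 for control and 467.3 and 400.6 for iron deficiency, with Cdx1, Cdx2 and Foxa2 below background throughout and 4 of 5 tested lower in both, against 25% of all probe sets. The 4 were Vil1, Foxa1, Upk1b and Upk2. Another gene of the Upk family, Upk3a, is on the ureteric bud list, and which tissue gave this sum was not tested. The adrenal markers summed to 141.5 and 129.3 with the control diet and 346.5 and 130.5 with iron deficiency. Of these, Th, Dbh and Chga read 81.8, 72.6 and 55.9 in iron-deficient pool 1 and at most 16.8 in any other pool. Cyp11a1 read 37.8 and 20.3 against 31.2 and 24.3, Cyp21a1 33.5 and 14.5 against 36.4 and 13.9, and Star 37.9 and 49.5 against 33.4 and 34.3. The neural markers summed to 537.3 and 556.5 against 760.6 and 824.4. The gonad list summed to 393.4 and 342.4 against 3684 and 556.4, most of it from Sox9, which the ureteric bud also expresses, while Amh, Dmrt1, Foxl2 and Cyp17a1 were below background in all pools. Fst read 26.2 and 23.6 against 117.2 and 112.7, and Gata4, at 3.5 and 2.7 against 19.9 and 15.2, was above background in the iron-deficient pools alone. The part of such tissue in the Hox values was not tested.

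Partners and regulators of Hox genes were read from the same fit, and none of them passed over all tested probe sets. Among the Pbx, Meis and Pknox cofactors, which bind DNA together with Hox proteins, 8 of 9 were measured and all 8 were above background in every pool, with a median difference of -0.16. Pknox2 read 317.8 and 317.9 under the control diet and 147.8 and 248.3 under iron deficiency (-0.73 ± 0.38, or -0.36 without iron-deficient pool 1), the only cofactor separated by diet. Meis1 differed by -0.45 ± 0.38, or -0.13 without that pool and 0.35 as the mean over its probe sets, and Pbx2 by 0.40 ± 0.47, which was -0.19 without iron-deficient pool 1. The caudal factors Cdx1, Cdx2 and Cdx4, which switch on posterior Hox genes earlier in the embryo, were below background in all pools. Of the caudal and retinoic acid list, 2 of 10 tested genes had an unadjusted p under 0.05 as higher (1.14% of all tested probe sets, 1.26% of genes) and 0 as lower (2.81% and 3.32%). One of them, Cyp26a1, had a control mean of 13.5, under the filter limit, and was tested only because of its iron-deficient signals. Both encode enzymes that break down retinoic acid, a signal that activates anterior Hox genes. Cyp26b1 read 69.5 and 56.8 for control and 417.5 and 130.1 for iron deficiency (1.89 ± 0.60, limma p = 0.0223, exact permutation p = 0.333, adjusted p = 0.852, and 1.05 without iron-deficient pool 1). Cyp26a1 read 15.4 and 11.9 against 27.4 and 22.5 (0.88 ± 0.34, limma p = 0.0452, exact permutation p = 0.333, adjusted p = 0.852), or 0.47 with the offset of 16. Aldh1a1, a retinal dehydrogenase, differed by -0.79 ± 0.51, or -0.13 without iron-deficient pool 1, and Aldh1a2, which makes retinoic acid in the stroma, read 1735.9 and 1748.2 against 1332.3 and 1984.9.

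Chromatin regulators that silence or keep open the clusters had a median of -0.08 over 21 tested genes, with 4 above (11.8% of all probe sets) and 4 below (25%) both controls in each iron-deficient pool. Ezh1, a histone H3 methyltransferase of the Polycomb group, differed by 0.70 ± 0.35, Cbx8, a Polycomb reader protein, by -0.76 ± 0.47, and Kdm6b, which removes the Polycomb mark, by 1.01 ± 0.53. Without iron-deficient pool 1, Cbx8 was at -0.19 and Kdm6b at 0.31. As means over probe sets, Ezh1 was at 0.21, Cbx8 at -0.10 and Kdm6b at 0.50. Kdm6b read 2377.1 and 2861.1 with the control diet and 8586.6 and 3222.3 with iron deficiency. Of a list of genes that act with or after the number 11 paralogs in the early kidney, 13 of 15 were tested, with a median of -0.11, 4 above (11.8% of all probe sets) and 1 below (25%) the controls in each iron-deficient pool. Six2 read 95.1 and 70.4 against 118.8 and 103.7 (0.44 ± 0.34) and Gdnf, the ureteric bud inducer, 433.7 and 358.6 against 256.5 and 458.5. Gdnf, like Hoxa11, was lowest in iron-deficient pool 1 and highest in pool 2. That order was not particular to them, since Etv4, Men1, Krt8 and Aldh1a2 had it too. Its share over all probe sets was not computed. Sall1 differed by 0.45 ± 0.37 and Wnt9b, a ureteric bud signal, by -0.40 ± 0.34, which without iron-deficient pool 1 were 0.10 and -0.21.

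Noncoding and neighbouring transcripts completed the clusters. Of 12 listed noncoding RNAs, 3 had a row and were tested, and the diets overlapped in each. Hoxa11os, which is transcribed opposite to Hoxa11, read 656.3 and 757.3 under the control diet and 612.3 and 837.5 under iron deficiency, a milder dip in pool 1 than that of Hoxa11. Hoxb5os read 1512.1 and 1893 against 1063.8 and 1819.3, and Hoxd3os1 read 287.9 and 89.9 against 373 and 273.3. Of 12 tested neighbours of the clusters, 1 lay above (11.8% of all probe sets) and 3 below (25%) the controls in each iron-deficient pool, with a median of -0.12. Skap1, on the far side of the Hoxb cluster, read 104.6 and 101.5 against 27 and 67.3 (-1.27 ± 0.50, or -0.61 without iron-deficient pool 1), Mtx2, beside the Hoxd cluster, differed by -0.51 ± 0.31 and Calcoco1, near the Hoxc cluster, by 0.59 ± 0.31. Among 10 tested homeobox genes outside the clusters the median was 0.10. Irx3, a nephron patterning gene, read 190 and 160.1 against 82.9 and 114.5 (-0.84 ± 0.35), Irx2 differed by -0.42 ± 0.32 and Cux1 by 0.76 ± 0.53, or 0.05 without iron-deficient pool 1.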

How the data were processed

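Total RNA from 4 pools of E15 kidneys was made into biotinylated cRNA, per the labels' protocols. Deposited were linear intensity values, 1 per probe set and array; each array has a mean of 250.0 after trimming 2% at each end. The submitters' processing notes name RMA, but the values are not logarithmic and do not share a distribution, so their software, like the genome build, was not given in the sources used here.

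Zeros were set to 0.1 and values turned to log2. After 64 control probe sets and the lowest 40% of the others by mean log2 (limit 17.3) were left out, limma 3.58.1 under R 4.3.3 tested 27022 (lmFit, eBayes, two-sided, diet only, Benjamini-Hochberg; 2 residual and 3.49 prior degrees of freedom). Background came from 27 unspiked control probe sets. On simulated data the procedure recovered the built-in fold changes on average, but no changed probe set passed the adjusted threshold. Symbols came from the platform annotation, and a table of GRCm38.p6 changed 0 of them.

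The members and gene lists were chosen with earlier results of these data known. The rule for naming gave pool values for members above background in at least 3 pools, tests for separated members with p under 0.05 (none) and for numbers 10 and 11, and up to 3 genes of smallest p per other list. Tests of Hoxd1 and Hoxd12, pool values of the dim members and a few further list genes (Aldh1a2, Gdnf, Gata4) were added after their values were seen. Alternatives were other filters, normalizations, an offset of 16, eBayes options, array weights, a replicate block, other probe set rules, an adjusted p of 0.10 and leaving out each pool.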

Additional observations from a re-analysis of the deposited data

How the results depend on the processing

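No Hox gene passed under any of the 17 alternatives run for that count, with a smallest adjusted p of 0.0771 by limma (without iron-deficient pool 2) among the fits. The members' median stayed above 0 in all of them, at 0.021 to 0.26 with a pool left out. Leaving out a pool gave 7 to 13 members higher and 4 to 11 lower than every control pool kept, since a lone pool separates more easily. Over all tested probe sets the same fits gave 16.8% to 34.9% higher and 31.7% to 52.6% lower. With the lowest 60% left out, 4 of 22 tested members were higher in both and 2 lower, against 12.1% and 26.3% of all tested probe sets. After median centring, 7 of 27 were higher and 2 lower, against 10.1% and 15.7%. Over all probe sets the limma calls numbered 201 after median centring, 8 with 1 probe set per gene, 10 with the mean over probe sets and 0 to 75 with a pool left out, and the causes were not tested. The pool number as a replicate block gave 479 calls and 0 Hox genes. Cyp26b1 passed only there (limma adjusted p = 0.00589; up to 1 over its alternatives). The pools share only a number, and deviations of same-numbered pools correlated at 0.357. With a pool left out, differences ranged from -0.85 to 0.10 for Hoxa11, -0.34 to 0.37 for Hoxc10, -0.21 to 0.95 for Hoxd11, -0.19 to 1.00 for Pbx2, -0.20 to 0.25 for Hoxa11os and -0.67 to 0.10 for Hoxb5os. With the mean over probe sets, Meis1 was at 0.35 and Cux1 at -0.033. Above background in both control pools were 26 Hox genes with the limit doubled and 30 with it at the median of the control probe sets. Iron-deficient arrays had higher background limits, which narrows what can be read from dim genes such as Hoxd12 and Hoxd1.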
